A study of Homo sapiens with 2 samples.

Results

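The genes described here, CD44, CTNND1, ENAH, FGFR2, SLK, ARHGEF11 and EXOC7, are known for transcripts that are spliced in one way in epithelial cells and in another in mesenchymal cells. Their binding by the RNA-binding protein hnRNPM was taken from 1 deposited list of crosslink sites in HMLE cells, an established human cell line made from mammary epithelium. A site was counted for a gene when its middle lay in the gene's window on GRCh37 and on the gene's strand. This gave 96 of the 54373 sites of the list, in 6 of the 7 genes. The list came from iCLIP, in which ultraviolet light links a protein to the RNA it touches and reverse transcription stops near the link. There were 2 libraries, biological replicates of WT HMLE cells given DMSO and precipitated with an antibody against hnRNPM, and no other condition. The list gave 1 value per site and none per library. The spread between replicates is therefore unknown here, as is the depth of each library, and nothing below is a test between groups.

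During the change from an epithelial to a mesenchymal state, cells switch the splicing of a set of transcripts for adhesion, signalling and cytoskeletal proteins. The ESRP proteins favour the epithelial forms, and hnRNPM has been described as favouring the mesenchymal form of CD44, in which the variable exons are skipped. Crosslink sites of a splicing regulator mark where it touched a transcript, and they do not show by themselves whether an exon was included or skipped. CD44 is the receptor for hyaluronan. CTNND1 encodes p120-catenin, which binds the tail of classical cadherins. ENAH (Mena) and ARHGEF11 (PDZ-RhoGEF) act on actin, one by extending filaments and the other by activating RhoA. FGFR2 is a receptor for fibroblast growth factors, SLK a Ste20-like kinase of the cytoskeleton, and EXOC7 the Exo70 subunit of the exocyst, which tethers vesicles at the membrane.

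The exons at stake can be short. The following sequences show the switch exons of 2 of the genes in capitals, each with 15 bases of the neighbouring exons in lower case, read from GENCODE release 29 transcripts (GRCh38). The ENAH exon (63 nt, chr1:225504991-225505053, minus strand) is included in epithelial cells, and the SLK exon (93 nt, chr10:104010816-104010908, plus strand) is annotated as included in one transcript and skipped in another.
ENAH exon: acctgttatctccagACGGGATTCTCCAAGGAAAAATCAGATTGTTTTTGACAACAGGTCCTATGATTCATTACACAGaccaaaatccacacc
SLK exon: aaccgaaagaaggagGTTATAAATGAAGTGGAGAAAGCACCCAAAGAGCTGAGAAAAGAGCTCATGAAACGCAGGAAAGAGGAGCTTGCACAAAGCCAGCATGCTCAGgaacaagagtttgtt
The sites are on GRCh37 and these exons on GRCh38, so the distance from a site to an exon was not measured, nor was any site assigned to an exon or intron. The sequence under the sites was not analysed here for the same reason.

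Most hnRNPM sites of these genes were in CD44 and CTNND1. CD44 (chromosome 11, plus strand, 35160417 to 35253949) held 32 sites and CTNND1 (chromosome 11, plus strand, 57529234 to 57586652) held 28. Together they made up 62.5% of the 96 sites and 80.9% of their summed height. The height is the whole number the authors deposited for each site, read here as the number of truncation events. ENAH (chromosome 1, minus strand, 225674534 to 225840845) held 14 sites although its window was the longest of the 7. ARHGEF11 (chromosome 1, minus strand, 156904632 to 157015162) held 8 sites. FGFR2 (chromosome 10, minus strand, 123237844 to 123357972) and SLK (chromosome 10, plus strand, 105727470 to 105787342) held 7 each. EXOC7 (chromosome 17, minus strand, 74077086 to 74099868) held none.

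Per length, CTNND1 came first. It had 0.488 sites per kb of window (exact Poisson 95% interval 0.324 to 0.705), and CD44 had 0.342 (0.234 to 0.483). SLK followed with 0.117 (0.0470 to 0.241), then ENAH with 0.0842 (0.0460 to 0.141), ARHGEF11 with 0.0724 (0.0312 to 0.143) and FGFR2 with 0.0583 (0.0234 to 0.120). The intervals of CD44 and CTNND1 overlapped each other and lay above those of ENAH, ARHGEF11 and FGFR2, while the interval of SLK reached into that of CD44. They cover counting error alone and take sites as independent, which neighbouring sites are not, so they are too narrow. Densities and positions refer to the windows used. GENCODE release 29 gives greater lengths for CTNND1 (66.3 kb against a window of 57.4 kb), SLK (62.0 against 59.9 kb) and EXOC7 (40.6 against 22.8 kb).

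Several sites can share a tag cluster, a unit that the authors' site names give and that the file does not define. The density was therefore also given by clusters with a site. CTNND1 had 16 clusters with a site, or 0.279 per kb (0.159 to 0.453), and CD44 had 14, or 0.150 per kb (0.0818 to 0.251). ENAH had 12 and ARHGEF11 and FGFR2 had 7 each, and the upper bounds of these 3 genes were 0.126, 0.130 and 0.120 clusters per kb. By this measure the interval of CD44 overlapped those of ENAH, ARHGEF11 and FGFR2, and the interval of CTNND1 still lay above them. SLK, with 4 clusters, had an upper bound of 0.171 per kb, which reached into the intervals of both CD44 and CTNND1.

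**Figure D1:**
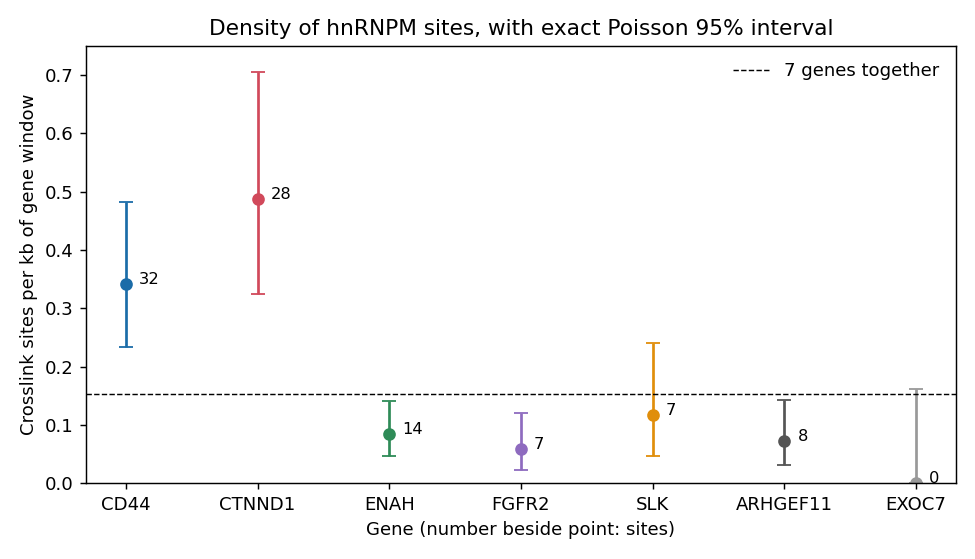
Crosslink sites per kb of gene window (vertical axis) for the 7 genes, as points with exact Poisson 95% intervals and the number of sites beside each point. CTNND1 (0.488) and CD44 (0.342) lie above the density of the 7 genes together (0.152, dashed line), and the point of EXOC7 is at 0, with an upper bound of 0.162.

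Set against the whole list, the site numbers of CD44 and CTNND1 were near the top and those of the other genes were not. All chromosome strands were cut into windows of a gene's length, and windows holding at least 1 site were kept. At least 32 sites were found in 1.5% of 8574 windows of the length of CD44, and at least 28 in 0.811% of 10482 windows of the length of CTNND1. For ENAH 17.9% of windows had at least its 14 sites, for SLK 27.3% at least its 7, for ARHGEF11 29.7% at least its 8, and for FGFR2 35.1% at least its 7. These windows were laid without regard to genes, and a window placed on a gene catches a gene's sites more fully, so the shares are a description and no test.

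No site lay on the opposite strand in any of the 7 windows, and the nearest one was 11.4 kb from SLK and between 130 and 518 kb from the others. Flanks as long as the gene itself held no site on the same strand on either side of CD44, FGFR2, SLK and ARHGEF11. CTNND1 had 1 site in its upstream flank, 47.5 kb from the window. ENAH had 8 in its downstream flank, the nearest at 62.0 kb, and EXOC7 had 2, the nearest at 9.22 kb. The sites nearest to a window edge from within were those of CTNND1 at 0.779 kb from the 5′ edge and of ENAH at 1.81 kb from the 3′ edge.

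**Figure D2:**
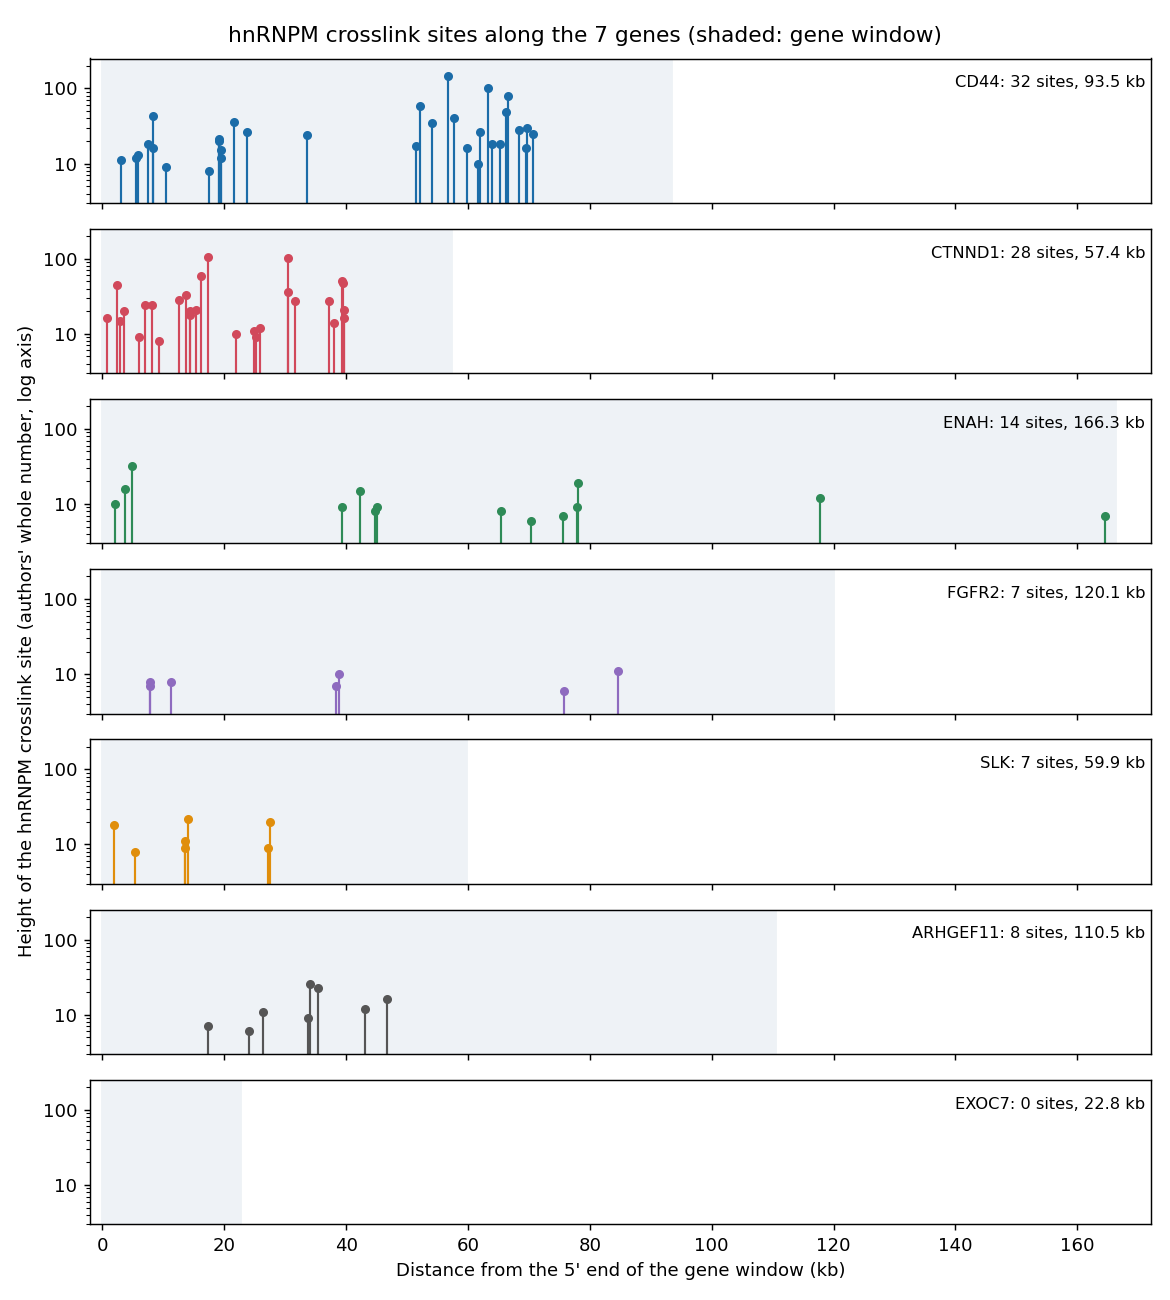
Each panel shows a gene window (shaded) with its crosslink sites as stems at their distance from the 5′ end in kb (horizontal axis), and the height of the site on a log axis. CD44 has a dense group from 51.5 to 70.6 kb that holds its 146-high site, and the 3′ part of CD44, CTNND1, FGFR2, SLK and ARHGEF11 is empty.

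Within CD44 the sites formed a 5′ scatter and a dense group farther downstream, with an empty stretch of 17.9 kb between them. The first 15 sites ran from 3.12 to 33.6 kb from the 5′ end, with a median height of 16, and none was taller than 43. The other 17 ran from 51.5 to 70.6 kb, over 19.1 kb, with a median height of 28, and they held 71.5% of the summed height of CD44 (713 of 997). This division was made after the values were seen. Of the first group, 4 sites lay within 0.306 kb in 1 tag cluster at 19.2 to 19.5 kb, with heights of 20, 21, 15 and 12.

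The tallest site of CD44, and of all 7 genes, was in the dense group. It had a height of 146 (chromosome 11, 35217070 to 35217090) and stood 56.7 kb from the 5′ end, and it ranked 78 by height in the whole list. The 6 listed sites of its tag cluster ran over 8.26 kb, with heights of 17, 59, 35, 146, 41 and 16 in 5′ to 3′ order. All 6 shared an expected height of 2.03, the authors' value for the cluster, so the tallest was 71.9 times the expected height and the lowest 7.88 times. Clusters with at least 6 sites were rare in the list (199 of 40129). The P value deposited by the authors was 1.97e-12 for this site and also for those of 59, 35 and 41, so it did not rank them.

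Downstream of that cluster, tall sites recurred among lower ones. A pair of sites at 61.6 and 62.0 kb had heights of 10 and 26. The next cluster had a site of 101 at 63.3 kb (chromosome 11, 35223682 to 35223702) and one of 18 at 64.0 kb. It was followed by sites of 18, 48 and 79 between 65.3 and 66.6 kb, and by sites of 28, 16, 30 and 25 between 68.4 and 70.6 kb. Tall and low sites thus stood side by side in the group rather than forming a single peak.

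The sites of CTNND1 were spread more evenly over the first part of the gene. They ran from 0.779 to 39.7 kb from the 5′ end, with a longest gap of 5.56 kb and a median gap of 1.03 kb, against a median gap of 1.27 kb in CD44. The tallest had a height of 105 (chromosome 11, 57546503 to 57546523) at 17.3 kb, beside one of 59 in the same cluster. A second tall site of 101 (chromosome 11, 57559644 to 57559664) stood at 30.4 kb, 69 nt upstream of one of 36. The last 4 sites lay within 0.435 kb at 39.3 to 39.7 kb, with heights of 50, 48, 21 and 16 in 5′ to 3′ order. Between the tall sites were low ones, such as those of 10, 11, 9 and 12 from 22.0 to 25.9 kb.

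The tallest sites of the 7 genes were all in CD44 and CTNND1. Of the 10 tallest sites, 5 were in CD44 (146, 101, 79, 59 and 48) and 5 in CTNND1 (105, 101, 59, 50 and 48). A height of at least 100 was reached by 4 of the 96 sites (4.17%), against 0.353% of the whole list. A height of at least 17, the upper quartile of the list, was reached by 46 of 96 (47.9%), against 27.2% of the list. The genes differed in this: 21 of 32 sites of CD44 and 18 of 28 of CTNND1 reached it, but 7 of the 36 sites of the other genes (19.4%).

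ENAH carried low sites far apart. The first 3 stood at 2.16, 3.74 and 4.86 kb from the 5′ end, with heights of 10, 16 and 32. The site of 32 (chromosome 1, 225835971 to 225835991) was the tallest of the gene. After an empty stretch of 34.5 kb there were 4 sites with heights of 9, 15, 8 and 9 from 39.3 to 45.1 kb. A further 5, with heights of 8, 6, 7, 9 and 19, ran from 65.4 to 78.0 kb. The last 2 stood alone, one of 12 at 118 kb and one of 7 at 164 kb, after the longest gap of the 7 genes (46.7 kb). The 9 sites at or under the list's median height of 11 made up most of the 14.

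FGFR2 had the lowest sites. Its 7 heights were 8, 7, 8, 7, 10, 6 and 11 in 5′ to 3′ order, so that none exceeded the median of the list. They stood at 7.75, 7.83, 11.2, 38.3, 38.9, 75.7 and 84.7 kb. The tallest (11) was the last one (chromosome 10, 123273295 to 123273315). Each was the only site of its tag cluster, also the pair 82 nt apart.

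SLK had few sites but they were mixed in height. The tallest, of 22 (chromosome 10, 105741485 to 105741505), stood at 14.0 kb, in a cluster with sites of 9 and 11 at 13.5 kb. A site of 18 stood at 1.92 kb and one of 8 at 5.36 kb. The last 2, of 9 and 20, stood at 27.3 and 27.6 kb, and the remaining 32.3 kb of the window held none. In 3 of the 7 sites (those of 18, 22 and 20) the deposited P value was 1e-100, the smallest of the list, which 16.2% of all sites carried.

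The 8 sites of ARHGEF11 lay in a stretch of 29.4 kb. They stood between 17.3 and 46.7 kb from the 5′ end, with heights of 7, 6, 11, 9, 26, 23, 12 and 16 in that order. The tallest, of 26 (chromosome 1, 156981101 to 156981121), stood at 34.1 kb, and that of 23 at 35.4 kb. The remaining 63.9 kb of the window, 57.8% of its length, held no site.

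**Figure D3:**
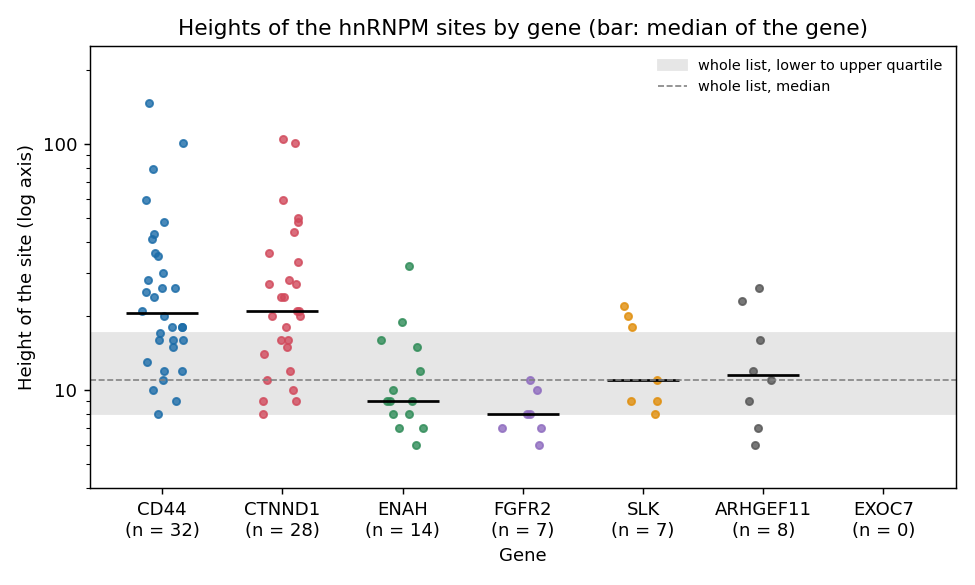
Heights of the sites (vertical log axis) by gene, 1 point per site, with a bar at the median of the gene and the quartiles and median of the whole list as a band and a dashed line. The sites of CD44 and CTNND1 reach 146 and 105, while all 7 sites of FGFR2 lie between 6 and 11.

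The median height was 21 in CTNND1 (interval 16 to 28), 20.5 in CD44 (16 to 30), 11.5 in ARHGEF11 (6 to 26), 11 in SLK (8 to 22), 9 in ENAH (7 to 16) and 8 in FGFR2 (6 to 11). The intervals come from the order of the sites and would cover at least 95% if sites were independent. Neighbouring sites are not, so these intervals can be too narrow. In the whole list the median was 11, with quartiles of 8 and 17. The intervals of CD44 and CTNND1 lay above the list's median, and those of the other genes included it. The median expected height was also highest in CTNND1 and CD44, but ARHGEF11, next to them by median height, was among the lowest. It was 1.42 in CTNND1, 1.25 in CD44, 0.71 in SLK, 0.425 in ENAH, 0.335 in ARHGEF11 and 0.33 in FGFR2, against 0.51 in the list. No RNA level was measured in these files, so whether taller sites in CD44 and CTNND1 went with more RNA was not tested.

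Taken relative to the expected height, the order of the genes changed. ARHGEF11 had the highest median ratio of height to expected height, 38.9 (interval 18.4 to 64.0), and 6 of its 8 sites were above the upper quartile of the list (30.6), a mark that 24.9% of all sites passed. FGFR2 followed with 25.9 (15.4 to 33.3), ENAH with 21.9 (18.2 to 27.8), CD44 with 20.6 (17.2 to 28.4), CTNND1 with 17.9 (14.9 to 22.2) and SLK with 16.0 (12.2 to 42.9). The median of the list was 23.7. The interval of CTNND1 lay below it and all the others included it, that of ARHGEF11 among them. The highest single ratios were 71.9, for the CD44 site of 146, and 64.0, for the ARHGEF11 site of 16 at 46.7 kb. The largest P value deposited in the list was 0.000999, and such a limit could require a higher ratio of sites with a low expected height. The file does not define P, and P did not follow height and expected height alone. FGFR2 sites of 8 with expected heights of 0.51 and 0.52 had deposited P values of 0.00085 and 0.000384. An ENAH site of 6 with an expected height of 0.26 had a ratio of 23.1 and a deposited P value of 0.000829. A CTNND1 site of 16 with an expected height of 2.68 had 5.97 and 0.000398. How far this limit set the order of the genes by ratio was not tested.

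**Figure D4:**
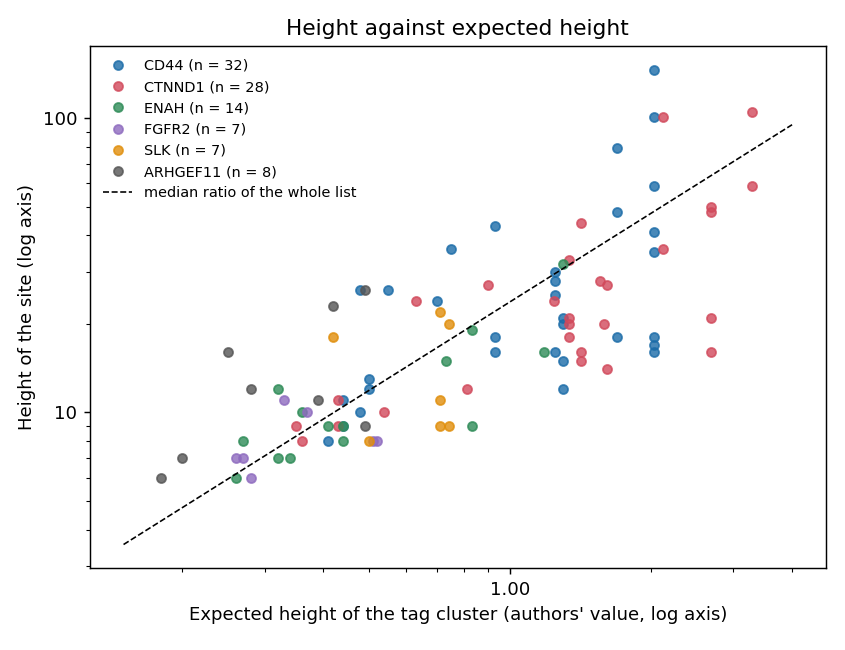
Height of each site (vertical log axis) against the expected height of its tag cluster (horizontal log axis), coloured by gene, with the median ratio of the whole list (23.7) as a dashed line. The sites of ARHGEF11 sit mostly above the line at low expected heights, and sites of CD44 and CTNND1 lie on both sides of it at expected heights up to 3.29.

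The 3′ part of the genes held few sites. Of the 96 sites, 1 (1.04%, Wilson 95% interval 0.184 to 5.67) lay in the last 20% of its gene window, the ENAH site at 164 kb, and 72 lay in the first 60%. The Wilson interval takes the 96 sites as independent, although 60 of them were in CD44 and CTNND1, so it can be too narrow. The numbers in 5 equal parts of the window, from the 5′ end, were 8, 7, 3, 14 and 0 in CD44, 8, 8, 6, 6 and 0 in CTNND1 and 3, 5, 4, 1 and 1 in ENAH. They were 3, 2, 0, 2 and 0 in FGFR2, 2, 3, 2, 0 and 0 in SLK, and 1, 6, 1, 0 and 0 in ARHGEF11. The stretch between the last site and the end of the window was 22.9 kb in CD44, 17.7 kb in CTNND1 and 35.5 kb in FGFR2. How the sites of other genes fell along their length was not analysed here, so the pattern cannot be called particular to these genes.

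The names of the sites bear on how empty these ends were. Each name holds a running number that rises along the chromosome strand, and numbers missing from the list were taken as candidates not listed, which the file does not state. Between the last site of CTNND1 and the next listed site, 767 kb beyond the window, only 2 numbers were missing. In ARHGEF11 1 was missing over the remaining window and 192 kb beyond it, and in FGFR2 2 over a still longer distance. The empty 3′ ends of these 3 genes thus held at most 1 or 2 unlisted numbers. The numbers of the tag clusters also rise along the strand, and far more of them were unlisted. Between the listed sites on either side of the window there were 948 for CTNND1 (over 872 kb), 2019 for ARHGEF11 (3477 kb) and 1324 for FGFR2 (1907 kb). How many of these clusters lay in the empty ends is unknown here, so few missing running numbers do not show that reads were absent there. In the other genes, the running numbers missing between the last site and the next listed one were 11 for CD44, 14 for ENAH and 14 for SLK. Between the first and last sites, the listed share of the running numbers was 46.7% in SLK, 44.4% in ARHGEF11 and 30.4% in FGFR2. It was 24.4% in CD44, 21.2% in CTNND1 and 19.7% in ENAH, against 24.2% over all chromosome strands.

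EXOC7 had no site in its window of 22.8 kb. A count of 0 allows up to 3 sites, or 0.132 per kb. The exact Poisson interval used for the other genes has an upper bound of 0.162 per kb here. For this window, both values are below the lower bounds of CD44 and CTNND1 and above the densities of the other 4 genes. A count of 0 over a greater length would give lower values, so their place above the other 4 genes depends on the window. At the density of FGFR2, the lowest of the others, 1.33 sites would fall in such a window, and at the pooled density of the other 6 genes 3.60. Between the listed sites on either side of EXOC7, 361 kb apart, 2 running numbers were missing, so no more than 2 unlisted ones lay in the gene. The same stretch held 683 tag cluster numbers, and how many of those lay in the gene is unknown here. Of windows of this length along the chromosome strands, genes or not, 93.8% held no site. GENCODE release 29 gives EXOC7 a length of 40.6 kb, more than the window used here, and the nearest sites to the window were 9.22 kb downstream and 329 kb upstream.

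Many sites of these genes shared a tag cluster with another site. There were 56 of 96 sites (58.3%) in a cluster with at least 2 sites, against 43.4% of the list, and 34 (35.4%) in one with at least 3, against 19.9%. Here too CD44 (26 of 32) and CTNND1 (19 of 28) set the share, together with SLK (5 of 7). In ENAH it was 4 of 14, in ARHGEF11 2 of 8 and in FGFR2 0 of 7. How the clusters were built is not given in the file, so whether this is a measure separate from the density of sites was not tested.

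Very close pairs were few. The next site downstream was within 50 nt for 5 of the 96 sites (5.21%), against 5.37% of the list. The closest pair was in SLK, 28 nt apart, with heights of 9 upstream and 11 downstream. In CD44 there were pairs 29 nt (15 and 12), 32 nt (20 and 21) and 40 nt (43 and 16) apart, again upstream first. In CTNND1 a pair 29 nt apart had heights of 18 and 20. The upstream site was the taller one in 2 of these 5 pairs, and both sites of each pair were in 1 tag cluster.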

How the data were processed

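Crosslink sites of hnRNPM were taken from 1 deposited list for 2 iCLIP libraries of WT HMLE cells given DMSO. Positions are on GRCh37, which the submitters' processing notes name as the build. How reads were aligned, sites called, duplicates treated and libraries pooled is not given in the sources used here. Each 21-nt site carried a score deposited by the authors that equalled the value marked PH in its name and is called the height. PH0, read as the expected height, P and the tag cluster are the authors' entries in the same name, and the file does not define them. No p-value was computed, since nothing was given per library.

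The genes and their windows were chosen with earlier results of these data known. All 7 genes are named, with the tallest site of each, the 10 tallest sites and the 5 closest pairs. Intervals are exact Poisson for counts, Wilson for shares and order-based for medians (95%), and a count of 0 was taken to allow 3. All of these intervals take sites as independent. The sources on GRCh38 (GENCODE release 29) gave 2 exon sequences and gene lengths only; 1 further sequence is not reported here. Counting was tested on simulated data: of 112 sites placed in the windows, 112 were recovered. None was placed at an edge, outside a window or on the opposite strand, so errors of edge or strand could not show. The work used scipy 1.17.1 with pandas 2.3.3 and numpy 2.4.6 in Python 3.11.15, and figures were drawn with matplotlib 3.10.9.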

Additional observations from a re-analysis of the deposited data

How the results depend on the processing

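Of 153 alternative values, 141 stayed within 1.5 times the reported count or within its interval, and 12 did not. Of these 12, 11 came from keeping only the sites above the list's median height, a setting with 34 values. FGFR2 had no site left there, so its median height, median ratio and share in the last 20% had no value and were not counted. Merging sites within 50 nt (91 sites) and windows extended or shortened by 1 kb (96 and 95 sites) moved none, nor did the last 10% of the window in place of the last 20%. The change by 1 kb could alter little. The nearest same-strand site outside any window was 9.22 kb away, and only the CTNND1 site at 0.779 kb lay within 1 kb of an edge. The greater lengths that GENCODE release 29 gives for CTNND1, SLK and EXOC7 were not tried as windows. With only the sites above the list's median height, the number of sites was 63, the density of the 7 genes together 0.0999 sites per kb in place of 0.152, and the median height 22 in place of 16, all by the construction of that alternative. The share in the last 20% of the window was then 0%, which allows up to 4.76% of 63 sites, and FGFR2 kept 0 sites, SLK 3, ARHGEF11 4 and ENAH 5. Pairs within 100 nt numbered 10, against 5 within 50 nt. No paired analysis was possible because heights were deposited once per site and not by replicate, and leaving out a replicate was likewise not possible. The planned measures on exons, on sequence at the sites and on other genes with splice switches or their regulators need GRCh37 genes or sequence and were not run. Depth is unknown here, so sites too low to be listed cannot be told apart from no binding.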
